A study of Mus musculus with 6 samples.

Results

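Ras GTPase-activating proteins (Ras GAPs) were described here by the 8 genes *Nf1*, *Rasa1*, *Rasa2*, *Rasa3*, *Rasal1*, *Rasal2*, *Rasal3* and *Dab2ip*, chosen by name out of 53657 gene names. RNA was sequenced from sorted undifferentiated spermatogonia of 6 adult mice, 3 WT and 3 MUT. Both groups carried *Gfra1-creERT2* and a tdTomato reporter, received repeated tamoxifen courses and were sampled 3 months later, and both had a mixed genetic background. MUT mice also carried 1 *FR-Hras* allele, in which Cre replaces the wild-type *Hras* gene with *Hras* G12V at its own locus, and WT mice were littermates without that allele. Cre was active under the *Gfra1* promoter, so recombination took place in undifferentiated spermatogonia and reached their progeny. The study found that nearly all of the sorted MUT cells had recombined. Cells were sorted as positive for tdTomato and bright for MCAM, a surface protein that is also found on somatic cells of the testis.

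RAS proteins are switched on by binding GTP and off by hydrolysing it, and they hydrolyse it slowly by themselves. A Ras GAP reaches into the active site with an arginine and speeds the reaction up, which ends the signal. RAS carrying G12V is largely insensitive to this help, whereas the product of the remaining wild-type *Hras* allele and the other wild-type RAS proteins stay under GAP control. In spermatogonia, GDNF and FGF2 signal through RAS, which makes the GAPs a brake on a pathway used for self-renewal. The comparison asked whether cells with 1 hyperactive *Hras* allele had more or less mRNA for these brakes.

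mRNA of all 8 genes was detected in the sorted samples of both genotypes, and none of the 8 passed the test between MUT and WT. Of 19656 genes tested, 0.0102% were called (edgeR quasi-likelihood fit, adjusted p under 0.1 by the Benjamini-Hochberg method). The log2 fold changes of the 8 genes ran from -0.31 for *Rasal3* to 0.21 for *Rasal1*, with a median of 0.047 beside a median of 0.0066 over all genes tested. An unadjusted p under 0.05 was reached by 0 of the 8, beside 2.78% of all genes tested, and DESeq2, which called 0.0241% of the genes it tested, called 0 of the 8. With the replicate number as a block, edgeR called 0.0661% of all genes tested and again 0 of the 8. With 3 mice against 3, an exact permutation test cannot go below p = 0.1.

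The libraries held between 22729292 and 23550433 counts, and 3 counts corresponded to between 0.127 and 0.132 CPM (counts scaled to library size, with TMM factors), a floor for counting error only. *Hras* was at 60.7 ± 4.21 CPM in WT and 66.7 ± 4.97 CPM in MUT (SD, n = 3 each), and counts per gene do not tell its alleles apart. The tdTomato reporter was at 61.9 ± 4.99 CPM in WT and 61.4 ± 7.64 CPM in MUT (SD, n = 3 each). WT replicate 3 stood apart, with a chi-square per degree of freedom of 20.5 and 27.6 against the other WT libraries, where other pairs within a group were between 4.67 and 11.1. Markers of undifferentiated spermatogonia (8 genes, *Gfra1* and *Zbtb16* among them) summed to between 2074 and 2640 CPM. Markers of differentiating spermatogonia (5 genes) summed to at most 894 CPM in WT and at least 914 CPM in MUT. This sum was higher in every MUT sample, as were the single levels of 4.69% of all genes tested. Of the 5, *Stra8* was higher in every MUT sample, while *Kit*, *Sohlh1*, *Dmrtb1* and *Ccnd2* overlapped between the groups. The part of this sum in the results was not tested. Spermatocyte markers summed to between 288 and 376 CPM. Spermatid markers summed to 932, 680 and 1172 CPM in WT replicates 1 to 3 and 471, 507 and 893 CPM in MUT replicates 1 to 3. The spermatid sum was lower in MUT in each same-numbered pair, with groups that overlapped. Markers of cells outside the germ line were present despite the gate. They summed to between 387 and 670 CPM for macrophages (5 genes, *Csf1r* and *C1qa* among them), 114 and 174 CPM for leukocytes as a whole, 6.03 and 268 CPM for B and plasma cells, 34.7 and 44.5 CPM for endothelial cells, 12.9 and 67.3 CPM for Leydig cells, 17.2 and 27.2 CPM for Sertoli cells, 13.2 and 16.4 CPM for T cells, and 6.99 and 11.4 CPM for peritubular myoid cells. No list had a gene at 0 in all samples, and of the marker genes that could be tested none passed between MUT and WT. In bulk RNA, fewer cells of a type and less RNA per cell cannot be told apart.

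Per kilobase of annotated exon, the 8 genes fell into 3 tiers. *Rasa3* (22.4 ± 2.03 CPM per kb, SD over the 6 samples), *Rasa1* (21.2 ± 0.839), *Dab2ip* (17.9 ± 2.05) and *Nf1* (17.4 ± 1.96) were highest. The ranges over the 6 samples overlapped between each of these and its neighbour in that order, although *Rasa1* was above *Dab2ip* in 6 of 6 samples. *Rasa2* (9.98 ± 0.735 CPM per kb) and *Rasal2* (7.99 ± 0.829) made up the middle tier, and the ranges of *Nf1*, *Rasa2* and *Rasal2* did not overlap. *Rasal3* (2.15 ± 0.377 CPM per kb) and *Rasal1* (1.31 ± 0.144) were lowest, and the mean of *Rasal2* was 3.72-fold that of *Rasal3*. *Rasa3* was above 85.6% of the genes tested on this scale and *Rasal1* above 30.7%. The exon length joins all annotated isoforms, which lowers the level of a gene with long alternative ends. Per kilobase of the longest protein-coding transcript, a measure chosen after seeing the data, *Rasa1* led at 34.0 ± 1.35 CPM per kb and *Rasa2* moved to the second place at 27.2 (range over the samples from 24.5 to 30.1), ahead of *Rasa3* at 25.9 ± 2.35, while *Rasal2*, *Rasal3* and *Rasal1* stayed the lowest.

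**Figure D1:**
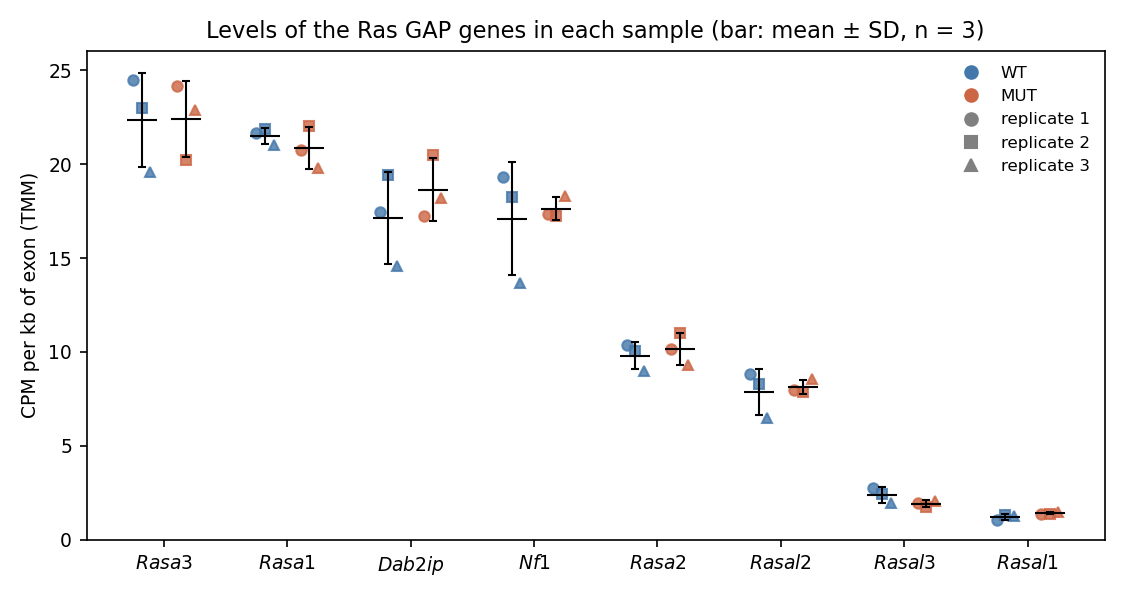
Level of each Ras GAP gene in CPM per kilobase of exon (linear axis from 0) in the 3 WT and 3 MUT samples, ordered by the mean over all samples; symbols give the replicate number and bars the mean ± SD of a group. The 4 highest genes lie between 13.7 and 24.5 CPM per kb in every sample, and *Rasal3* and *Rasal1* reach at most 2.75.

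Added over the 8 genes, the level was 106, 105 and 87.5 CPM per kb in WT replicates 1 to 3 and 101, 102 and 101 CPM per kb in MUT replicates 1 to 3. WT replicate 3 was the low sample, and the other 5 lay within the range from 101 to 106. The means were 99.4 ± 10.3 CPM per kb in WT and 101 ± 0.696 in MUT (SD, n = 3), and the difference of 1.84 ran from -4.09 to 5.11 as each sample was left out, with the negative value in the absence of WT replicate 3. Of the sum, *Rasa3* gave 22.5% ± 0.582 in WT and 22.2% ± 2.11 in MUT. *Rasa1* gave 21.8% ± 1.96 and 20.6% ± 0.971, *Dab2ip* 17.2% ± 1.17 and 18.4% ± 1.54, and *Nf1* 17.1% ± 1.35 and 17.4% ± 0.690. For each of these 4 genes the difference between the mean shares was smaller than the larger of both SDs. *Rasal3* gave 2.60%, 2.33% and 2.23% in the WT samples, against 1.93%, 1.68% and 2.07% in the MUT samples (2.38% ± 0.190 and 1.89% ± 0.196). These shares did not overlap between the groups, but its CPM did, with WT replicate 3 at 9.55 and MUT replicate 3 at 10.2. The share in WT replicate 3 was taken of the lowest sum. By CPM, every MUT sample was below every WT sample for 590 of the 19656 genes tested.

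CG dinucleotides are the main sites of DNA methylation in vertebrates. RefSeq (GRCm38.p6) gave a window of 300 bases around the start for 5 of the 8 genes, namely *Nf1*, *Rasa1*, *Rasa2*, *Rasa3* and *Rasal2*. These windows held between 26 and 32 CG dinucleotides (CG reads the same on both strands), where the median over 32851 promoters was 7, and between 83.1% and 90.5% of promoters held fewer. Of these 5, the 3 with the highest levels per kilobase of exon are shown by the 150 bases before the RefSeq start, in the direction of transcription and with CG in capitals. The RefSeq starts differ from the ends of the gene spans given for the counted annotation, so that the *Nf1* stretch lies inside its span and the *Rasa1* stretch some way outside it.
*Rasa3* (chr8:13677588-13677737, minus strand): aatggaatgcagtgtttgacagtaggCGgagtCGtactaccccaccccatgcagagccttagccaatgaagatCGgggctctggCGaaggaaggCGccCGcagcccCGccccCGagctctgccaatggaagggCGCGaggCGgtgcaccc
*Rasa1* (chr13:85289487-85289636, minus strand): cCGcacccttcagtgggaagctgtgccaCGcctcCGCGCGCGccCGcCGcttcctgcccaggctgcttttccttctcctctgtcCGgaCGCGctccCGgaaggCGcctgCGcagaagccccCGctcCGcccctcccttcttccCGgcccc
*Nf1* (chr11:79339742-79339891, plus strand): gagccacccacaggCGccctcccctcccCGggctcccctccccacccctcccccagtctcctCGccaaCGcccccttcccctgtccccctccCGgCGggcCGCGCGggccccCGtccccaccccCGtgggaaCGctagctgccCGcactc
The stretches held 11, 17 and 13 CG dinucleotides, in that order. Such promoters are common among genes used by many cell types, and nothing on methylation was measured.

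*Nf1* and *Rasa1* are the founding Ras GAPs. *Nf1* encodes neurofibromin, the protein lost in neurofibromatosis, and spans chromosome 11 from 79339693 to 79581612 on the plus strand (GRCm38), with 15850 bases of exon. Its level was 307, 289 and 217 CPM in WT replicates 1 to 3 and 275, 273 and 291 CPM in MUT replicates 1 to 3. The MUT samples lay inside the WT range, whose width came from WT replicate 3. The coefficient of variation was 17.6% in WT and 3.43% in MUT, where counting error alone would give 1.26% and 1.24%. The log2 fold change was 0.046 (standard error 0.123, 95% interval from -0.24 to 0.33, adjusted p = 0.998 from edgeR), and it was -0.092 without WT replicate 3. MUT was higher in 1 of the 3 same-numbered pairs.

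*Rasa1* encodes p120-RasGAP, which docks on activated receptors through SH2 domains. Its locus is chromosome 13, 85214780 to 85289130 (minus strand), and 12 of its 7320 exon bases are shared with *Ccnh* on the other strand, where fragments were left out as ambiguous. Its level was 159, 160 and 154 CPM in WT replicates 1 to 3 and 152, 161 and 145 CPM in MUT replicates 1 to 3. The groups overlapped, and *Rasa1* had the narrowest spread of the 8 genes in WT, with a coefficient of variation of 1.97% beside 1.65% from counting. The log2 fold change was -0.045 (standard error 0.0666, 95% interval from -0.20 to 0.11), the tightest interval of the 8, and stayed negative as each sample was left out (from -0.099 to -0.0065).

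The GAP1 group, *Rasa2*, *Rasa3* and *Rasal1*, encodes proteins with paired C2 domains. *Rasa2* (chromosome 9, 96539300 to 96631617, minus strand) had 164, 159 and 142 CPM in WT replicates 1 to 3 and 161, 175 and 148 CPM in MUT replicates 1 to 3. *Rasa3* (chromosome 8, 13566948 to 13677603, minus strand) also acts on RAP GTPases in platelets. It had 125, 117 and 99.8 CPM in WT replicates 1 to 3 and 123, 103 and 117 CPM in MUT replicates 1 to 3. For both genes the groups overlapped and WT replicate 3 was the lowest sample. The log2 fold change of *Rasa2* was 0.055 (95% interval from -0.14 to 0.25) and that of *Rasa3* 0.0045 (95% interval from -0.23 to 0.23). These signs had no stability, since *Rasa2* was at -0.0035 without WT replicate 3 and -0.021 without MUT replicate 2, and *Rasa3* at -0.082 without WT replicate 3, -0.059 without MUT replicate 1 and -0.010 without MUT replicate 3.

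*Rasal1* (chromosome 5, 120648812 to 120679597, plus strand) was the 1 member whose groups did not overlap. WT replicates 1, 2 and 3 gave 85, 111 and 105 counts, and the MUT libraries gave 112, 112 and 121. After scaling these were 3.71, 4.74 and 4.44 CPM in WT and 4.90, 4.86 and 5.17 CPM in MUT, so the lowest MUT sample exceeded the highest WT sample, by little in the case of WT replicate 2. The same held with DESeq2 size factors, and MUT was higher in 3 of the 3 same-numbered pairs (exact two-sided permutation test over samples, p = 0.1, the smallest possible). A separation with MUT higher was seen for 4.69% of all genes tested, and one with MUT lower for 590 of the 19656. The log2 fold change was 0.21 (standard error 0.163, 95% interval from -0.16 to 0.58), and the adjusted p was 0.998 in edgeR. Without WT replicate 1, the lowest sample, it was 0.11. At about 100 counts a library, counting error alone gives a coefficient of variation of 9.98% in WT.

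*Dab2ip*, *Rasal2* and *Rasal3* form a further group of related GAPs, and *Dab2ip* and *Rasal2* are known as tumour suppressors. *Dab2ip* (chromosome 2, 35558266 to 35730994, plus strand) had 146, 163 and 122 CPM in WT replicates 1 to 3 and 144, 171 and 152 CPM in MUT replicates 1 to 3. WT replicate 3 was again the lowest and the groups overlapped. Its log2 fold change of 0.12 (95% interval from -0.14 to 0.38) became 0.015 without WT replicate 3. Antisense exons overlap 4.15% of its exon bases, and 1.78% of those of *Rasal2*, so part of either gene was not countable. *Rasal2* (chromosome 1, 157135182 to 157412595, minus strand) had 121, 114 and 88.7 CPM in WT replicates 1 to 3 and 109, 108 and 117 CPM in MUT replicates 1 to 3. As for *Nf1*, the MUT samples lay inside the WT range. The log2 fold change was 0.049 (95% interval from -0.21 to 0.30), and -0.075 without WT replicate 3.

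*Rasal3*, a GAP best known from T cells and other blood cells, is on chromosome 17, 32390659 to 32403583 (minus strand). WT replicates 1, 2 and 3 gave 308, 279 and 226 counts, and the MUT libraries gave 218, 194 and 239. The levels were 13.5, 11.9 and 9.55 CPM in WT and 9.53, 8.41 and 10.2 CPM in MUT. WT replicates 1 and 2 were above all MUT samples, and WT replicate 3 lay between MUT replicates 1 and 3. The log2 fold change was the most negative of the 8, at -0.31 (standard error 0.160, 95% interval from -0.68 to 0.054, unadjusted p = 0.0856 and adjusted p = 0.998 from edgeR; exact two-sided permutation test, p = 0.2). It was -0.43 without WT replicate 3 (unadjusted p = 0.0159 and adjusted p = 0.999 from edgeR). In that fit 729 of 20086 genes had an unadjusted p under 0.05. With the replicate block and the pair numbered 3 left out, a fit chosen after seeing the data that leaves 2 pairs, it was -0.50 with an adjusted p of 0.0432 from edgeR, in a fit that called 5.54% of all genes tested. The leukocyte markers summed to 130, 126 and 174 CPM in WT replicates 1 to 3 and 114, 120 and 139 CPM in MUT replicates 1 to 3, and the macrophage markers to 531, 468 and 670 CPM and 387, 463 and 523 CPM. Both lists were lower in MUT in each same-numbered pair, as *Rasal3* was in every pair but the one numbered 3. They were highest in WT replicate 3, which had the least *Rasal3* of the WT samples. The 5 T cell markers summed to 16.1, 13.2 and 13.9 CPM in WT and 15.0, 16.4 and 14.2 CPM in MUT, of which *Lck* was the highest at 209 to 254 counts a library and *Cd3g* the lowest at 0 to 3. The B and plasma cell markers summed to 40.9, 166 and 268 CPM in WT and 11.8, 6.03 and 52.1 CPM in MUT, so they were lower in MUT in each same-numbered pair. The part of these cells in the *Rasal3* values was not tested.

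**Figure D2:**
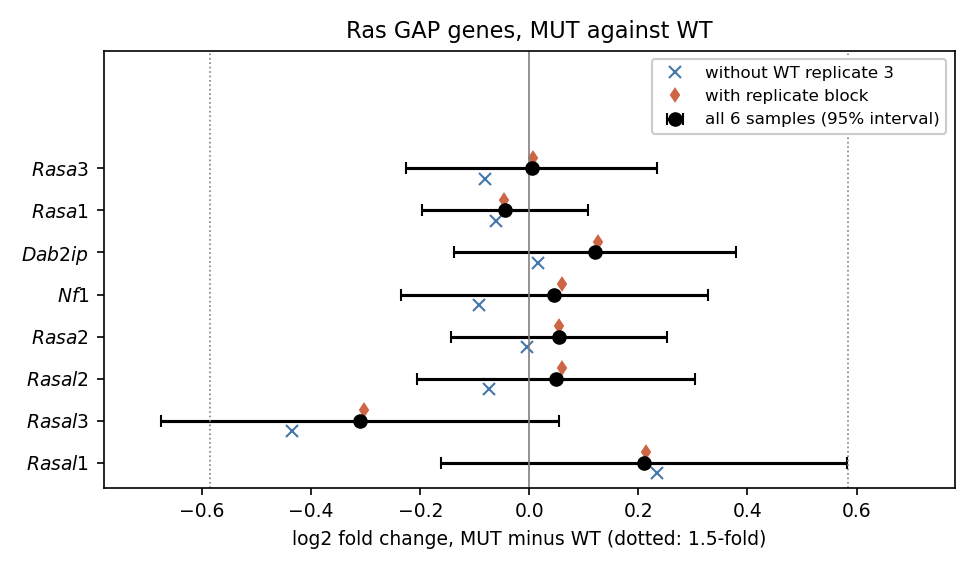
Log2 fold change of each Ras GAP gene, MUT minus WT, with the 95% interval from edgeR over all 6 samples (black), without WT replicate 3 (crosses) and with the replicate number as a block (diamonds). Every black interval includes 0, and the crosses of *Rasa3*, *Nf1*, *Rasa2* and *Rasal2* lie on the other side of 0.

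Each 95% interval was computed for 1 gene at a time, and they do not cover the 8 genes jointly. For 7 of the 8 genes the whole 95% interval lay within a 1.5-fold change in either direction, beside 59.1% of all genes tested, and for *Rasal3* it reached down to 0.626-fold. For 8 of the 8 it lay within a 2-fold change, beside 81.6% of all genes tested. These shares over all genes were not matched for count level. A larger change in the bulk RNA was outside each gene's own 95% interval, which does not exclude it.

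WT replicate 3 had the lowest level for 5 of the 8 and was below the gene's own mean for 8 of 8, with a median deviation of -0.17 (log2 CPM relative to that gene's average in all 6 samples). WT replicate 1 was the highest for 4 of the 8 and WT replicate 2 was above the mean for 8 of 8. The deviation in WT replicate 3 was -0.34 for *Nf1*, -0.30 for *Rasal2* and -0.29 for *Dab2ip*, but -0.0093 for *Rasa1*. Over all genes above 10 CPM, the median deviation in this library went from 0.15 for genes with under 2000 bases of exon to -0.19 for the 1114 genes with 10000 bases or more, and in WT replicate 1 it went the other way, from -0.080 to 0.092. In the MUT libraries, the median deviations of these length classes lay between -0.032 and 0.039. *Nf1*, *Rasal2* and *Rasa2* all have over 10000 bases of exon. After a correction for exon length, chosen after seeing the data, the deviation in WT replicate 3 was -0.12 for *Nf1*, -0.11 for *Rasal2* and 0.072 for *Rasa2*, which had been at -0.15. It was still -0.18 for *Dab2ip* and -0.16 for *Rasa3*. The correction takes out each library's own trend over exon length, so long genes were bound to rise in WT replicate 3. The part of exon length in these levels was not tested. The corrected log2 fold changes were 0.014 for *Nf1*, 0.016 for *Rasal2* and 0.012 for *Rasa2*. With this correction edgeR called 0 of the 8 without the block and 0 of the 8 with it, beside 0.0102% and 0.0661% of all genes tested.

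**Figure D3:**
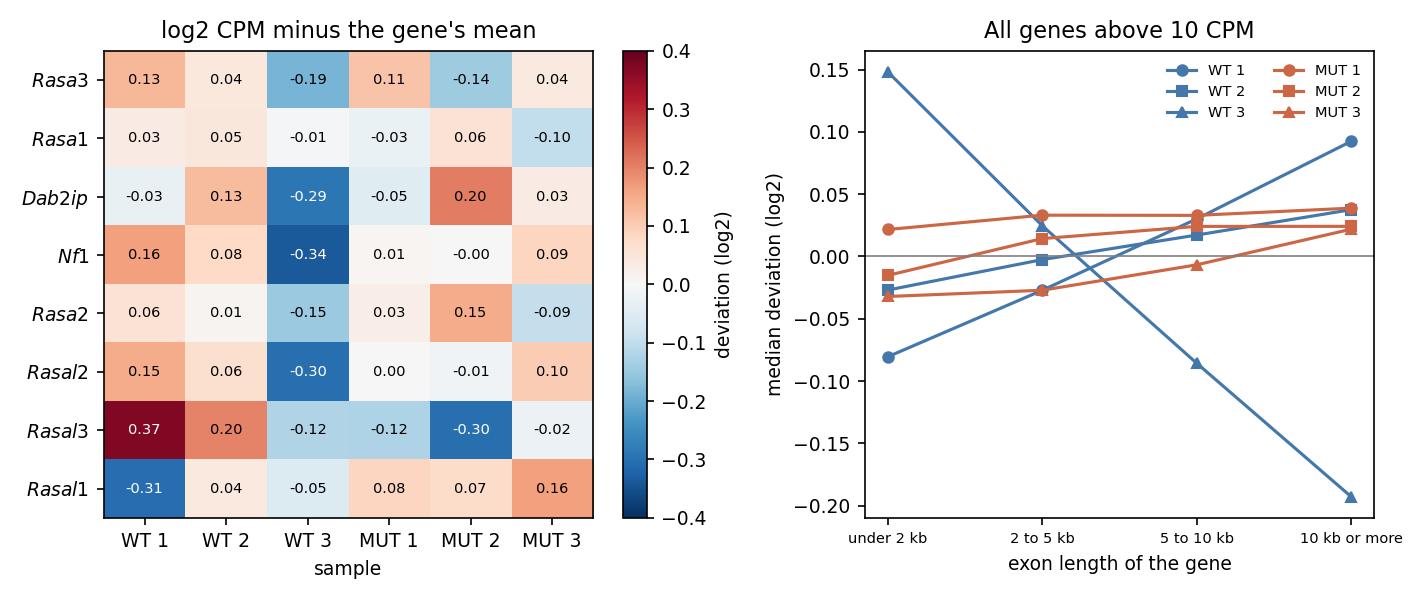
Left, deviation of each Ras GAP gene from its own mean (log2 CPM) in each sample; right, median deviation of all genes above 10 CPM in each sample, by exon length of the gene. WT replicate 3 is below the mean for all 8 genes on the left, and on the right it falls from 0.15 to -0.19 as exon length rises.

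The genes closest to *Nf1* over the 6 samples, by the root mean square difference of centred log2 CPM among 10582 genes above 10 CPM, were *Usp54* (0.017), *Rasal2* (0.019) and *Tead1* (0.021), where the median gene was at 0.18. *Usp54* encodes a ubiquitin peptidase relative and *Tead1* a transcription factor of the Hippo pathway. Like *Nf1*, all 3 had their lowest level in WT replicate 3, and they have 9068, 13740 and 13570 bases of exon. The genes closest to *Rasa1* were *Ssfa2* (0.015), *Sec22c* (0.017) and *Rnf141* (0.020), where the median gene was at 0.11. These are descriptions over 6 samples that share their libraries.

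The rest of the pathway was read from lists of named genes, and 0 of the 49 genes on them passed the test. Among the 6 other genes with a GAP-related domain the log2 fold changes ran from -0.13 to 0.20 (median 0.043). *Rasa4*, of the GAP1 group, was at 21.5 ± 1.07 CPM in WT and 19.6 ± 2.02 CPM in MUT (SD, n = 3). *Iqgap3*, whose related domain is not known to act on RAS, had the largest log2 fold change of this list at 0.20, and *Gapvd1* was at 0.065. The 6 GAPs for RAP ran from -0.11 for *Sipa1* to 0.12 for *Rap1gap*, and *Sipa1l1* was at 0.097.

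The 11 partners of neurofibromin and RASA1 had log2 fold changes from -0.14 to 0.090 (median 0.026). *Spred1*, which carries neurofibromin to the membrane, was at 88.8 ± 4.51 CPM in WT and 87.8 ± 4.11 CPM in MUT (log2 fold change -0.016, 95% interval from -0.17 to 0.14). The smallest unadjusted p among the partners belonged to *G3bp1* (0.063), *Dok3* (-0.14) and *Arhgap35* (0.090), given here by log2 fold change. On the side of the substrates, 8 RAS and RAP GTPases ran from -0.19 for *Mras* to 0.14 for *Hras*, with *Rras2* at 0.081. Per kilobase of exon, *Nras* was at 22.3 CPM in WT and 22.8 CPM in MUT, which lie within the range of the 4 highest Ras GAPs over samples.

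The exchange factors, which load RAS with GTP and so oppose the GAPs, ran from -0.19 to 0.41 (8 genes, median -0.090). *Rasgrp1* was at 5.65 ± 0.554 CPM in WT and 7.53 ± 0.498 CPM in MUT, and its groups did not overlap (log2 fold change 0.41, unadjusted p = 0.0214, adjusted p = 0.998 from edgeR). Of all genes tested, 4.69% were separated with MUT higher and 590 of the 19656 with MUT lower. An unadjusted p under 0.05 from edgeR was reached by 2.78%. *Rasgrp2* was at -0.19 and *Sos1* at 0.099 (log2 fold change). The 10 genes used as a readout of MAPK signalling, which include targets that ERK induces, had 3 log2 fold changes above 0 and 7 below (median -0.17). Of these *Dusp6*, an ERK phosphatase, was at 131 ± 5.13 CPM in WT and 110 ± 15.1 CPM in MUT (unadjusted p = 0.0340, adjusted p = 0.998 from edgeR). *Epha2* was at -0.36 and *Epha4* at 0.50, with groups that overlapped for all 3.

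**Figure D4:**
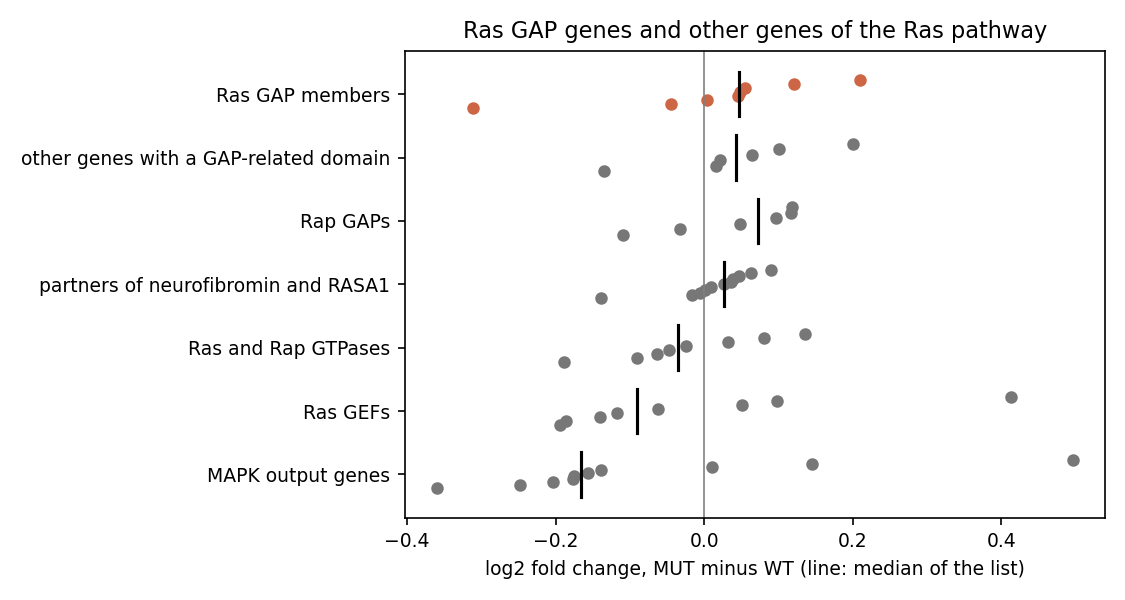
Log2 fold change, MUT minus WT, of the 8 Ras GAP genes (orange) and of the genes on 6 other lists of the Ras pathway (grey), 1 point per gene, with the median of each list as a line. The medians lie between -0.17 for the MAPK output genes and 0.073 for the Rap GAPs, and no point passed the test.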

How the data were processed

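The authors aligned the reads (the processing notes name FastQC and STAR) and deposited raw, unnormalized fragment counts by gene name. Per the file headers, featureCounts 1.6.2 produced them from GENCODE vM17 (GRCm38.p6) with tdTomato added. Counting was unstranded and left out multi-mapping and ambiguous fragments; nothing was normalized, filtered or pooled. Depth was 22729292 to 23550433 counts per sample.

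Counts were joined by gene name. In R 4.3.3, edgeR 4.0.16 applied TMM scaling and filterByExpr, which kept 19656 genes, all 8 members among them, and tested MUT against WT by its quasi-likelihood test with genotype as the single term (Benjamini-Hochberg, FDR 0.1 as in the study). Intervals came from each fold change and its F statistic. The test was checked on simulated counts. Levels between genes are CPM per kilobase of the exon length in the files. Alternatives were DESeq2 1.42.0, limma 3.58.1 voom, DESeq2 size factors, no filter, a minimum of 10 counts per sample, a threshold of 0.05, a block on replicate number, and each sample left out. Transcript length, exon length correction and a fit without pair 3 were added after seeing the data. Lengths of transcripts are from GENCODE vM21 on the same build.

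The labels number both groups 1 to 3 and the controls were littermates. No label states that equal numbers are littermates. Deviations from group means, over 10583 genes above 10 CPM, correlated at 0.30, 0.16 and 0.40 within the same-numbered pairs. All were above 0.1, and the numbers were taken as pairs on that basis. WT 2 and MUT 1 correlated at 0.33, above WT 2 and MUT 2, so the correlations cannot establish the pairs. They are also correlations across genes, which are not replicates. Each sample is a separate mouse. The members and lists were chosen with earlier results of these data known. The named genes were the 8 members, *Hras*, tdTomato, *Spred1*, *Rasa4*, the 3 genes with the smallest unadjusted p of each other list, and the 3 genes most like *Nf1* and *Rasa1*, and marker genes of the lists described; *Ccnh* and *Nras* were added, and *Lck* and *Cd3g* picked, after their values were seen. Some genes on the lists enter the counts and medians but are not reported here by name.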

Additional observations from a re-analysis of the deposited data

How the results depend on the processing

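None of the 8 genes passed the adjusted p of 0.1 with DESeq2, limma voom, DESeq2 size factors, no filter, a minimum of 10 counts per sample, a threshold of 0.05, the replicate block in edgeR or DESeq2, the exon length correction with or without the block, or any 1 sample left out. The exception was the fit with the replicate block and pair 3 left out, which called 1 of the 8, *Rasal3*, at a log2 fold change of -0.50. It rests on 2 pairs, called 1085 genes in all (221 higher, 864 lower), and put *Nf1* at -0.12, *Rasa3* at -0.11 and *Rasal2* at -0.11. *Rasa3* was also negative with at least 10 counts in every sample (-0.0079), the exon length correction (-0.010) and that correction with the replicate block (-0.0093). Over the fits that each left out 1 sample, the log2 fold change ran from -0.092 to 0.14 for *Nf1*, -0.021 to 0.11 for *Rasa2*, -0.082 to 0.066 for *Rasa3* and -0.075 to 0.13 for *Rasal2*. *Rasal3*, *Rasal1*, *Rasa1* and *Dab2ip* kept their sign in every fit run. The count over all genes, 2 in edgeR, was 9 with DESeq2, 4 with limma voom, 5 without a filter, 1 at an FDR of 0.05, 0 with at least 10 counts in every sample (479 genes at an unadjusted p under 0.05), 13 with the replicate block in edgeR with or without the length correction, 55 with it in DESeq2, and 0 to 6 with 1 sample left out (0 without MUT replicate 2, with 292 genes at an unadjusted p under 0.05, and 6 without MUT replicate 3). The cause of these changes was not tested. For *Rasal1*, with 85 to 121 counts a library, counting error limits what can be seen.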
